A study of Mus musculus with 32 samples.

Results

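The positive arm of the mammalian circadian clock was examined through 4 genes: Arntl (which encodes BMAL1), its paralog Arntl2 (BMAL2), Clock and the Clock paralog Npas2. They were taken as the rows of a table of estimated gene counts whose Ensembl identifiers map to these symbols, and all 4 were found among 41687 rows. Each of them had counts in all 32 lung libraries, and all 4 passed the filter on low counts in every comparison.

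The proteins of this arm are transcription factors of the bHLH-PAS family, which join a DNA-binding basic helix-loop-helix with PAS domains for protein contacts. BMAL1 pairs with CLOCK or NPAS2, the dimer binds E-box sequences, and it drives the Period and Cryptochrome genes, whose products repress it. In a further loop the dimer drives the REV-ERB receptors (Nr1d1, Nr1d2), which compete with ROR receptors for ROR elements in the Arntl and Npas2 genes and repress them. In lung, this clock is known for gating inflammatory and secretory genes by time of day.

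The study compared the lungs of 6 wild-type (WT, C57b/6) and 6 Bmal1 knock-out (KO) mice, bred in-house, labelled female and aged 8 to 18 weeks. Each animal's RNA was made into libraries by up to 3 ways of treating ribosomal RNA. RiboZero libraries (pull-down of ribosomal RNA, 200 ng of input) and PolyA libraries (selection of polyadenylated RNA, 200 ng) were made from all 6 mice of each genotype. NoSelect libraries (no selection, 15 ng, 6 preparations combined) were made from mice 3 to 6 of each genotype, so n = 4. The allele, the deleted part of the gene and the time of day of collection are not given in the sources used here. Gene-level counts therefore do not say from which part of the Arntl transcript the KO counts come.

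Total counts ran from 11638590 to 25801192 in RiboZero, from 29924271 to 41548759 in PolyA and from 74979759 to 115059730 in NoSelect. In NoSelect, 71.2% to 75.0% of the counts lay in Lars2, Gm42418 and mitochondrial rows, which left 19500881 to 32968977. The NoSelect library of KO mouse 6 is labelled liver. Its 10 liver markers summed to 5.62 CPM (a share of the library's counts on a fixed scale), beside 3.15 to 5.69 over the 4 KO NoSelect libraries, with albumin (Alb) at 0.391, while 8 lung markers summed to at least 18663 in those libraries. KO mouse 6 also goes against its sex label: Xist was at 0.391 CPM or less in its 3 libraries and the Y-linked gene Ddx3y at 41.4 to 89.1, and Ddx3y was at 0 in every other library. Values without KO mouse 6 are given where they matter.

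All levels below are CPM after scaling of the 32 libraries by the trimmed mean of M-values (TMM), so that they can be set side by side across preparations. In bulk tissue, fewer cells of a type and less RNA per cell cannot be told apart. KO was tested against WT with edgeR's quasi-likelihood test and Benjamini-Hochberg adjustment over all rows tested in a preparation, and a change was called at an adjusted p under 0.05. In each preparation 2 of the 4 genes were called, Npas2 as higher and Arntl as lower. Over all rows, the called share was 3.46% for RiboZero, 4.03% for PolyA and 2.17% for NoSelect. Higher calls made up 1.84%, 1.62% and 1.19% of rows, and lower calls 1.63%, 2.41% and 0.981%.

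In GENCODE M21 (GRCm38), Arntl (ENSMUSG00000055116) lies on the plus strand of chromosome 7 at chr7:113207465-113314126. Npas2 (ENSMUSG00000026077) lies on the plus strand at chr1:39193731-39363236, Clock (ENSMUSG00000029238) on the minus strand at chr5:76209868-76304792 and Arntl2 (ENSMUSG00000040187) on the plus strand at chr6:146796055-146833529. An antisense gene, Gm45355, overlaps Arntl, and the pseudogenes Gm3617 and Gm20428 overlap Npas2. Clock is overlapped on its own strand by Gm43658 and the pseudogene Ube2n-ps1. Gm3617 held 3 to 92 counts and Gm20428 0 to 1, against 289 to 4257 counts for Npas2. The library kits keep strand, but whether the counting used it is not given in the sources used here, so reads from a gene and an antisense partner may not be separated.

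The Arntl promoter is known for a pair of ROR elements, the sites through which REV-ERB and ROR receptors act on it, and they are shown because the levels of these receptors are given further on. Both stretches were read from the RefSeq promoter table (GRCm38) on the plus strand, with the 9 letters that they share in capitals:
Arntl site 1, chr7:113207490-113207519: ggattggtcggAAAGTAGGTtagtggtgcg
Arntl site 2, chr7:113207526-113207555: agggaaggcagAAAGTAGGTcagggacgga
The second holds the ROR element TAGGTCA at chr7:113207541-113207547, downstream of a RefSeq start at position 113207511. The shared letters AAAGTAGGT were searched after the sequences had been seen. On either strand, 0.183% of 32851 promoter windows of the same length hold them and 2.61% hold TAGGTCA.

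For Npas2, the member with the largest change, the 190 bases outside any annotated exon upstream of its RefSeq start are shown, all in lower case because none of the searched letters occur there:
Npas2, chr1:39194022-39194211: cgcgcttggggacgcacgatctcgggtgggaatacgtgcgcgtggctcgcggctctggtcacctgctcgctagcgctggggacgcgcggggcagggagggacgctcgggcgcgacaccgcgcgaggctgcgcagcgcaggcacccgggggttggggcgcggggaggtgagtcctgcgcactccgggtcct
The E-box CACGTG, the ROR elements TAGGTCA and TGGGTCA and the D-box TTATGTAA were searched on both strands of the promoter windows of all 4 genes. They occur in 7.15%, 2.61%, 3.98% and 0.938% of all windows, and TAGGTCA in Arntl was the one match in the windows of the members. The Npas2 stretch shown lies inside the GENCODE gene, which starts at position 39193731. The RefSeq start of Arntl2, at 146805530, also lies inside its GENCODE gene, which starts at 146796055. The sequence upstream of the GENCODE starts of Npas2 and Arntl2 was therefore not searched. The 250 bases upstream of the start were 74.8% G or C for Npas2, 41.6% for Arntl2, 58.8% or 62.8% for the starts of Arntl and 49.2% to 77.6% for those of Clock, beside a median of 52.4% over all windows.

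Arntl, the targeted gene, was lower in KO in all 3 preparations and was not lost from any KO library. In RiboZero the WT libraries ran from 27.0 to 33.9 CPM with a median of 31.4, and the KO libraries from 15.2 to 18.7 with a median of 17.7. The 2 groups did not overlap. Mean Arntl was 30.9 ± 2.90 over WT libraries and 17.4 ± 1.31 over KO libraries (SD, n = 6 each). The log2 fold change was -0.83 with an SE of 0.069 (edgeR adjusted p = 2.46e-05). By that fold change KO libraries kept 56.4% of the WT level of Arntl RNA.

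In NoSelect, Arntl stood at 29.4, 29.0, 28.9 and 27.5 CPM in WT mice 3 to 6. The KO mice gave 18.7, 17.6, 18.4 and 16.6. The highest KO value lay far under the lowest WT value, and the log2 fold change was -0.69 (SE 0.049, edgeR adjusted p = 0.000451). By p-value Arntl ranked 15 of 16710 rows in RiboZero and 12 of 17124 in NoSelect.

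In PolyA the difference in Arntl was smaller and the groups overlapped. WT libraries ran from 19.6 to 23.6 CPM with a median of 22.6, and KO libraries from 17.0 to 20.9 with a median of 18.3. Of the 6 KO libraries, 4 lay under every WT library. The log2 fold change was -0.27 with an SE of 0.061 (edgeR adjusted p = 0.0262), rank 448 of 17211 rows. This call was lost when any 1 of 8 libraries was left out, those of WT mice 1, 3, 4 and 5 and KO mice 1, 4, 5 and 6. The adjusted p then lay between 0.0542 and 0.0788, and the log2 fold change between -0.28 and -0.24.

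Npas2, which can stand in for CLOCK as the partner of BMAL1, was 3.07-fold to 3.49-fold higher in KO in every preparation. In RiboZero, WT libraries ran from 11.5 to 18.9 CPM with a median of 17.0, and KO libraries from 49.5 to 58.7 with a median of 53.6. In PolyA, WT libraries ran from 15.0 to 21.8 with a median of 17.4, and KO libraries from 58.1 to 69.7 with a median of 64.1. No KO library came near the WT range in either preparation.

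In NoSelect, Npas2 stood at 23.9, 28.8, 27.9 and 23.4 CPM in WT mice 3 to 6 and at 75.2, 79.2, 78.7 and 87.0 in KO mice 3 to 6. The 2 groups did not overlap here either. The log2 fold change of Npas2 was 1.71 (SE 0.097) in RiboZero, 1.80 (SE 0.087) in PolyA and 1.62 (SE 0.078) in NoSelect. The edgeR adjusted p was 7.89e-07, 1.85e-07 and 4.22e-05. As folds these are 3.26, 3.49 and 3.07, and by p-value Npas2 ranked 5, 3 and 5 among all rows tested. Among all rows tested, 2.89%, 3.32% and 9.48% had groups without overlap.

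Calls in the same direction in all 3 preparations were made for Npas2 among 98 higher rows, 0.621% of 15793 rows tested in each, and for Arntl among 97 lower rows, 0.614%. The 3 comparisons share mice. Without KO mouse 6, the log2 fold change was 1.71, 1.80 and 1.58 for Npas2, called in each, and -0.79 and -0.65 for Arntl in RiboZero and NoSelect, both called. Among rows called higher, Npas2 ranked 17 of 307 in RiboZero, 19 of 279 in PolyA and 17 of 204 in NoSelect by the size of the log2 fold change.

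**Figure D1:**
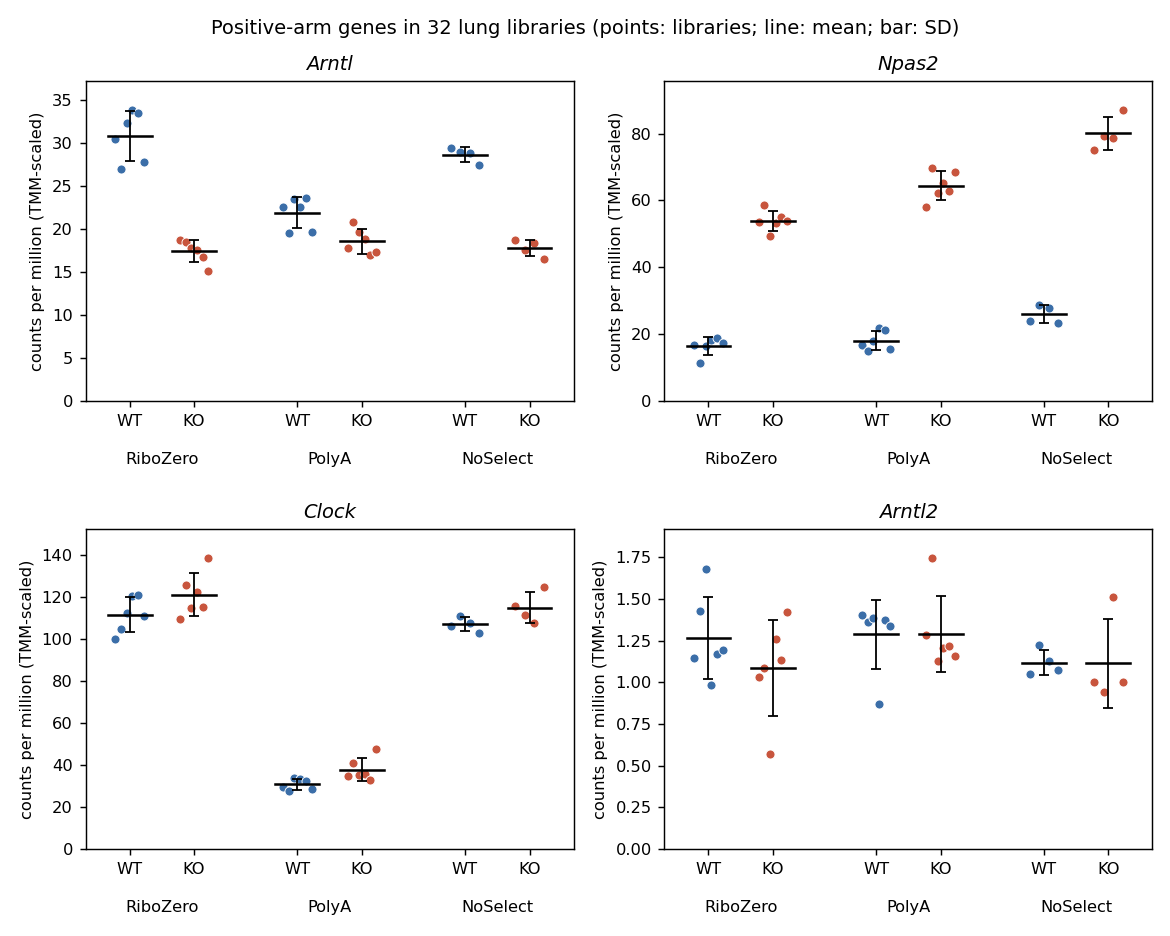
TMM-scaled CPM (vertical axes, from 0) of the 4 genes in each library, by preparation and genotype (WT blue, KO red), with the group mean as a line and the SD as a bar. Npas2 in KO stands above WT in all 3 preparations, Arntl in KO stands below WT except for an overlap in PolyA, and the WT and KO libraries of Clock and Arntl2 overlap throughout.

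Clock, the usual partner of BMAL1 and a histone acetyltransferase, was not called in any preparation by edgeR's fit within that preparation. In RiboZero, WT libraries ran from 100.0 to 121 CPM with a median of 112, and KO libraries from 110 to 139 with a median of 119. In PolyA, WT libraries ran from 27.6 to 33.9 with a median of 30.9, and KO libraries from 32.8 to 47.6 with a median of 35.6. In both, the ranges overlapped, but 3 of 6 RiboZero and 5 of 6 PolyA libraries of KO mice lay above every WT library.

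In NoSelect, Clock stood at 107, 111, 108 and 103 CPM in WT mice 3 to 6 and at 116, 112, 108 and 125 in KO mice 3 to 6. KO mouse 6 gave the highest Clock value of its preparation in all 3 cases. The log2 fold change of Clock was 0.11 (95% confidence interval -0.02 to 0.25) in RiboZero, 0.26 (0.09 to 0.44) in PolyA and 0.10 (-0.01 to 0.21) in NoSelect, with edgeR adjusted p of 0.407, 0.103 and 0.368. Without KO mouse 6 these values were 0.07, 0.20 and 0.06, again with no call. In PolyA the call depended on the tool: DESeq2 gave a log2 fold change of 0.26 and an adjusted p of 0.0486, and 1 edgeR fit of all 32 libraries gave 0.30 and 0.0111.

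Arntl2, the paralog of Arntl whose product can pair with CLOCK, was the least abundant member, with 8 to 89 counts per library. WT libraries ran from 0.986 to 1.68 CPM in RiboZero and from 0.868 to 1.41 in PolyA, and KO libraries from 0.569 to 1.42 and from 1.13 to 1.74. In NoSelect the WT mice gave 1.05, 1.22, 1.13 and 1.07, and the KO mice 1.00, 0.943, 1.51 and 1.00. The ranges of WT and KO overlapped in each preparation. The log2 fold change was -0.21 (95% confidence interval -0.64 to 0.22) in RiboZero, -0.04 (-0.36 to 0.29) in PolyA and -0.01 (-0.44 to 0.42) in NoSelect, with edgeR adjusted p of 0.665, 0.933 and 0.988. These intervals leave room for a change in either direction, and the smallest change detectable at this depth was not computed.

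**Figure D2:**
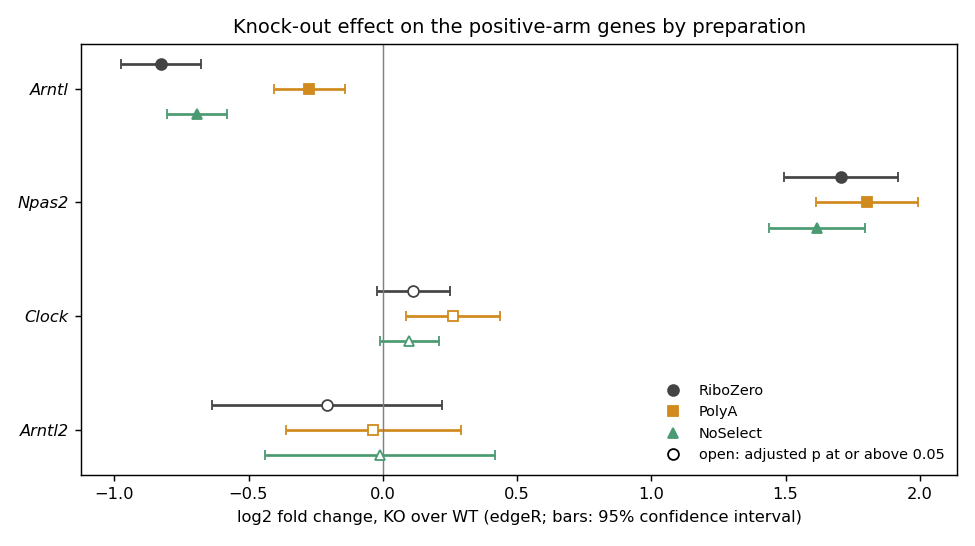
Log2 fold change of KO over WT (horizontal axis) for each of the 4 genes in RiboZero (circles), PolyA (squares) and NoSelect (triangles), with 95% confidence intervals from edgeR and open symbols for changes that were not called. The Arntl point of PolyA, at -0.27, lies to the right of those of RiboZero, at -0.83, and NoSelect, at -0.69, while the 3 intervals of each other gene overlap.

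Whether the KO effect on a gene differed between preparations was tested as the interaction of genotype and preparation in edgeR. With no block for mouse, 0 of 4 members were called in any pair of preparations, and 0.0% of all rows. At an unadjusted p under 0.05 there were 331 rows in PolyA against RiboZero, 412 in PolyA against NoSelect and 244 in RiboZero against NoSelect. DESeq2 called 11, 13 and 9 rows in these pairs, Arntl among them in the first and second. The Arntl effect was 0.57 higher on the log2 scale in PolyA than in RiboZero (SE 0.098, 95% confidence interval 0.37 to 0.78, adjusted p = 0.11). It had the smallest p-value of all 18164 rows.

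Both preparations came from the same mice, and with the mouse as a block the Arntl difference was 0.57 (SE 0.053, 0.46 to 0.68) with an edgeR adjusted p of 0.000474. It was then the 1 row called, 0.00551% of those tested. The mice show it directly. The ratio of Arntl in PolyA to Arntl in RiboZero ran from 0.666 to 0.741 over the 6 WT mice, and from 0.953 to 1.14 over the 6 KO mice. The 2 groups of mice did not overlap: the measured Arntl level fell from RiboZero to PolyA in each WT mouse and stayed near that of RiboZero in the KO mice. An exact two-sided permutation test of these log2 ratios, chosen after seeing the data, gave p = 0.00216, the smallest that 6 against 6 allows, and 0.026 after Benjamini-Hochberg adjustment over 12 such tests.

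Between PolyA and NoSelect the Arntl ratio was 0.800, 0.777, 0.818 and 0.718 in WT mice 3 to 6 and 1.05, 1.07, 0.922 and 1.05 in KO mice 3 to 6, again without overlap. The interaction was 0.40 on the log2 scale (SE 0.088) with an edgeR adjusted p of 0.747, and 0.33 with an adjusted p of 0.196 with the mouse as a block. DESeq2 called it, with 0.43 and an adjusted p of 0.0227. The exact permutation test of the ratios gave p = 0.0286, the smallest for 4 against 4, and 0.0686 after adjustment. Between RiboZero and NoSelect the interaction for Arntl was -0.14 (95% confidence interval -0.33 to 0.06, edgeR adjusted p = 1) and -0.23 with the mouse as a block (-0.36 to -0.11, adjusted p = 1). The ratio of Arntl in RiboZero to NoSelect ran from 1.02 to 1.17 in WT mice 3 to 6 and from 0.911 to 1.00 in KO mice 3 to 6, without overlap (exact permutation p = 0.0286, adjusted 0.0686). Npas2 had no overlap between PolyA and NoSelect either. Its ratio ran from 0.667 to 0.759 in WT and from 0.786 to 0.828 in KO (exact permutation p = 0.0286, adjusted 0.0686). For no pair of preparations was the share of all rows with ratios per mouse free of overlap counted.

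For Npas2, Clock and Arntl2 no interaction was called in any pair with edgeR, with or without the mouse as a block, which gave 0.0% of rows in PolyA against NoSelect and 0.00571% in RiboZero against NoSelect. Without the block, the interaction of Npas2 between PolyA and RiboZero was 0.12 (95% confidence interval -0.17 to 0.40) and that of Clock 0.17 (-0.07 to 0.40). With the block, that of Npas2 was 0.11 (-0.05 to 0.27, edgeR adjusted p = 0.938). That of Clock was then 0.16 (0.05 to 0.28, adjusted p = 0.888), an interval above 0. The exact permutation test of the Clock ratios per mouse gave p = 0.0173, and 0.0686 after adjustment. For Arntl2 the interaction without the block was 0.20 (-0.31 to 0.71), the widest of the 4 intervals.

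**Figure D3:**
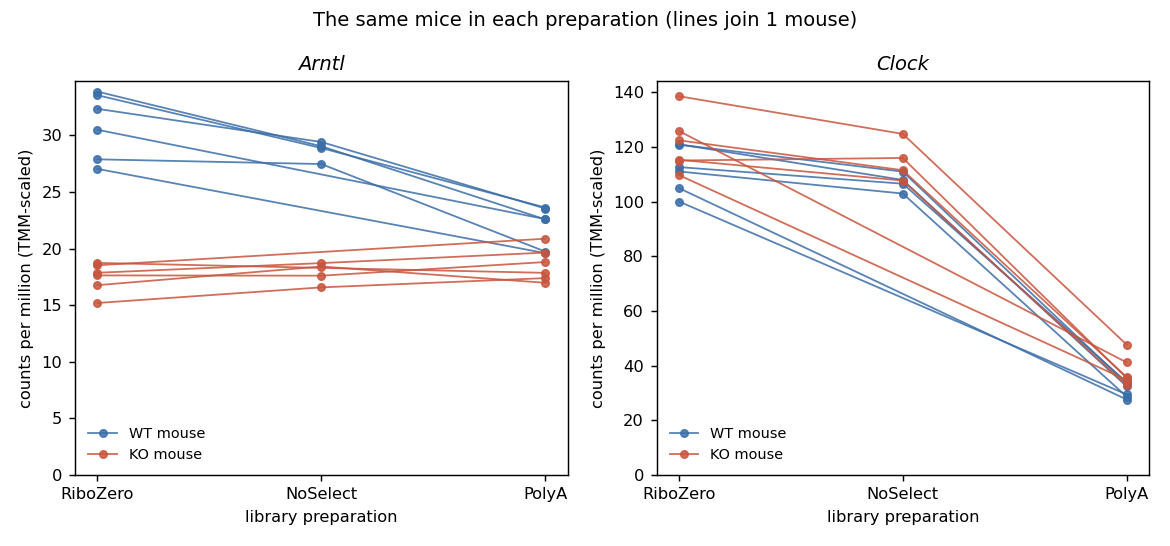
TMM-scaled CPM (vertical axes, from 0) of Arntl and Clock in RiboZero, NoSelect and PolyA libraries, with a line for each mouse (WT blue, KO red). The Arntl lines of WT mice fall towards PolyA and those of KO mice run between 15.2 and 20.9, whereas the Clock lines of both genotypes fall steeply to PolyA.

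The preparation itself moved the measured level of Clock most. These fits allowed for genotype but had no block for mouse, although the preparations share mice. Over both genotypes, PolyA libraries gave 29.5% of the RiboZero level of Clock, a log2 fold change of -1.76 (SE 0.060, edgeR adjusted p = 6.83e-19), and 31.7% of the NoSelect level (-1.66, SE 0.059, adjusted p = 4.89e-16). In WT the means were 112 ± 8.40 in RiboZero, 30.9 ± 2.69 in PolyA (SD, n = 6 each) and 107 ± 3.33 in NoSelect (SD, n = 4). No PolyA library reached the lowest RiboZero or NoSelect library. To be called, a preparation effect had to pass 0.05 after adjustment and reach 1 or -1 on the log2 scale, and Clock was 1 of the 4 members called in each of these pairs, where 23.6% and 25.1% of all rows were.

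The other members moved by less than that limit. Npas2 differed by 0.20 (SE 0.069) on the log2 scale between PolyA and RiboZero, by -0.38 (SE 0.068) between PolyA and NoSelect and by -0.61 (SE 0.067) between RiboZero and NoSelect, so that NoSelect libraries gave its highest level. The edgeR adjusted p was 0.00998, 3.77e-05 and 2.69e-07. For Arntl the difference was -0.20 (SE 0.076, adjusted p = 0.0186), -0.13 (0.0701) and 0.04 (0.567), a mean over genotypes whose mice moved differently from RiboZero to PolyA. Arntl2 differed by 0.13, 0.25 and 0.08, with adjusted p of 0.317, 0.0507 and 0.695. With the mouse as a block, the edgeR adjusted p of Npas2 between PolyA and RiboZero was 8.72e-05. Between PolyA and NoSelect it was then 0.0480 for Arntl and 0.225 for Arntl2. No member was called between RiboZero and NoSelect, where 4.3% of all rows were.

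To compare the genes with each other, CPM was divided by the length of the union of annotated exons (13.7 kb for Clock, 7.52 for Arntl, 5.69 for Arntl2 and 4.79 for Npas2). In WT RiboZero libraries Clock was highest at 8.14 CPM per kb, followed by Arntl at 4.10, Npas2 at 3.44 and Arntl2 at 0.223, and the ranges of Arntl and Npas2 overlapped. In WT NoSelect libraries the order was Clock 7.80, Npas2 5.43, Arntl 3.82 and Arntl2 0.197, with no overlap between neighbours. In WT PolyA libraries it was Npas2 3.77, Arntl 2.92, Clock 2.25 and Arntl2 0.227, with an overlap of Npas2 and Arntl.

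In KO, Npas2 was the highest member in every preparation, at 11.3 CPM per kb in RiboZero, 13.5 in PolyA and 16.7 in NoSelect. Clock followed at 8.83, 2.76 and 8.38, then Arntl at 2.32, 2.47 and 2.37 and Arntl2 at 0.190, 0.227 and 0.196. Neighbours in this order did not overlap except Clock and Arntl in PolyA. With the longest annotated transcript as the length, chosen after seeing the data, Npas2 and Clock overlapped in KO RiboZero libraries (12.7 and 12.4), Arntl stood above Npas2 in WT NoSelect libraries (7.18 and 6.14), and Arntl led in WT PolyA libraries (5.49, overlapping Npas2 at 4.26). In that same measure Arntl also stood above Clock in KO PolyA libraries (4.65 and 3.89), with an overlap.

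The ratio of Npas2 to Clock compares the 2 possible partners of BMAL1 within a library, and so does not depend on scaling between libraries. In RiboZero, the ratio per kb ran from 0.313 to 0.479 in WT and from 1.11 to 1.39 in KO. In PolyA it ran from 1.52 to 1.88 in WT and from 4.12 to 5.50 in KO. In NoSelect it was 0.644, 0.744, 0.741 and 0.652 in WT mice 3 to 6 and 1.86, 2.04, 2.09 and 2.00 in KO mice 3 to 6. KO lay above WT without overlap in all 3 preparations.

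The geometric mean of the ratio rose 3.05-fold in RiboZero, 2.95-fold in PolyA and 2.88-fold in NoSelect. Exact two-sided permutation tests gave p = 0.00216, 0.00216 and 0.0286, each the smallest the design allows, and 0.00649, 0.00649 and 0.0429 after Benjamini-Hochberg adjustment over 6 tests. The side of 1 on which the ratio lay depended on the preparation in WT, where Clock exceeded Npas2 in RiboZero and NoSelect but not in PolyA. In KO, Npas2 exceeded Clock per kb of exon union in every library of the 3 preparations. With the longest transcript as length it did so in 3 of 6 KO RiboZero libraries, where the ratio ran from 0.893 to 1.12, and in all KO libraries of PolyA and NoSelect.

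**Figure D4:**
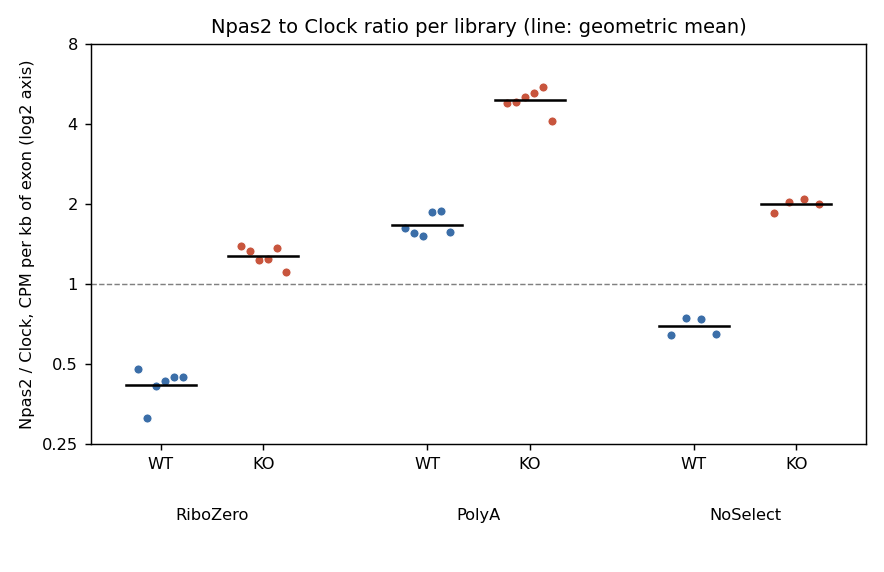
Ratio of Npas2 to Clock, each as CPM per kb of exon (log2 axis), in every library by preparation and genotype (WT blue, KO red), with the geometric mean as a line and a dashed line at 1. KO libraries stand 3.05-fold, 2.95-fold and 2.88-fold above WT, and the WT libraries lie above 1 in PolyA alone.

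The ratio of Arntl2 to Arntl, the paralogs on the other side of the dimer, was far under 1 in every library. Its geometric mean went from 0.0536 in WT to 0.0793 in KO in RiboZero, from 0.0769 to 0.0909 in PolyA and from 0.0515 to 0.0812 in NoSelect. The groups overlapped in RiboZero (1.48-fold, exact permutation p = 0.0498, adjusted 0.0597) and PolyA (1.18-fold, exact p = 0.113). Without KO mouse 3 both passed, with log2 ratios of KO to WT of 0.75 (exact permutation, adjusted p = 0.00866) and 0.29 (adjusted p = 0.0468). In NoSelect the groups did not overlap (1.58-fold, exact p = 0.0286, adjusted 0.0429), with 25 to 41 counts of Arntl2 per library. Without KO mouse 6 the log2 ratio was 0.44 in RiboZero (exact permutation, adjusted p = 0.113), 0.25 in PolyA (0.126) and 0.67 in NoSelect (0.0686). None of these passed, and in NoSelect too few mice were left for the test to pass. Arntl, the targeted gene, is the denominator and was called lower in each preparation, while Arntl2 was not called. Lower Arntl alone raises this ratio, so these tests cannot show a change of Arntl2.

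Among the 6 WT mice, Npas2 went with Arntl and with Clock. Per mouse, log2 CPM was averaged over RiboZero and PolyA, and 12 correlations between members were computed within genotypes, with exact permutation p over pairings. In WT, Arntl and Npas2 gave Pearson's r of 0.845 (exact p = 0.00278, adjusted 0.0167) and Spearman's rho of 1.00 (exact p = 0.00278, adjusted 0.0167). Mice 2 and 6 had the lowest Arntl, and without them r was 0.763 over 4 mice, a number with which the exact test cannot pass after adjustment. It was 0.726 in RiboZero alone and 0.769 in PolyA alone, and neither passed after adjustment. WT mouse 2 also had the lowest Npas2, 11.5 CPM in RiboZero and 15.0 in PolyA, and the highest Nr1d1, 23.6 in RiboZero against 7.35 to 11.5 in the other WT mice.

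For Clock and Npas2 in WT, r was 0.832 (exact p = 0.0111, adjusted 0.0444) and rho 0.886 (exact p = 0.0333, adjusted 0.1), with r of 0.807 without the 2 mice farthest from the median of Clock, 0.576 in RiboZero alone and 0.847 in PolyA alone, where neither passed after adjustment. For Arntl and Clock, r was 0.811 (exact p = 0.0417, adjusted 0.125). Over the 6 KO mice, r was 0.0569 for Arntl and Npas2 (exact p = 0.95) and -0.294 for Arntl and Clock (exact p = 0.561). These values depended on KO mice 5 and 6, the 2 farthest from the median of Arntl. Without them r was 0.755 and 0.818 over 4 mice, a number with which the exact test cannot pass after adjustment. In KO, Arntl2 and Npas2 gave r of 0.781 (exact p = 0.00278, adjusted 0.0167), with rho of 1.00, and r of 0.864 without the 2 mice farthest from the median of Arntl2. In RiboZero alone it was 0.612 and in PolyA alone 0.422, and neither passed after adjustment. That relation rests on 8 to 89 counts of Arntl2 per library. The difference between genotypes was not tested, and genes of 1 library share its depth and scaling.

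The receptors that act on ROR elements included the lowest ratios of KO to WT among the lists counted here. Of 8 ROR element factors, 8, 7 and 8 were tested in RiboZero, PolyA and NoSelect, and 3 were called in each, 2 of them lower. The median log2 fold change of the list was 0.00 in RiboZero, -0.06 in PolyA and -0.08 in NoSelect, beside 0.00 over all rows in each. Nr1d1 (REV-ERB alpha) ran from 7.35 to 23.6 CPM in WT and from 0.306 to 0.504 in KO in RiboZero, and its log2 fold change was -4.86, -5.40 and -4.77 in RiboZero, PolyA and NoSelect (edgeR adjusted p = 3.33e-06, 7.93e-07 and 1.5e-05). Nr1d2 (REV-ERB beta) changed by -3.44, -3.52 and -3.02. Rora, an activator at these elements, stood at -0.11, -0.16 and -0.14 and was not called.

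Of 8 feedback repressors, all tested, 2 were called in RiboZero (2 higher), 3 in PolyA (2 higher, 1 lower) and 3 in NoSelect (3 higher). The list medians were -0.16, -0.20 and -0.06. Cry1, which represses the CLOCK-BMAL1 dimer, rose from 17.9 to 52.0 CPM in RiboZero, from 16.6 to 48.9 in PolyA and from 19.1 to 49.8 in NoSelect, log2 fold changes of 1.53 (SE 0.076), 1.52 (SE 0.071) and 1.38 (SE 0.061). Per2, its partner in repression, rose by 1.28, 1.19 and 1.43. The other calls were Bhlhe41 in PolyA (-0.83, adjusted p = 0.00126) and Cry2 in NoSelect (0.43, adjusted p = 0.0317), named here after their values were seen. Without WT mouse 4 or without KO mouse 1, 4 of the 8 were called in RiboZero, and DESeq2 called 5 in RiboZero and 5 in PolyA. Over all rows DESeq2 called 976 of 16710 and 1355 of 17211, where edgeR called 579 and 694. The share of all rows called without either mouse is not given here.

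**Figure D5:**
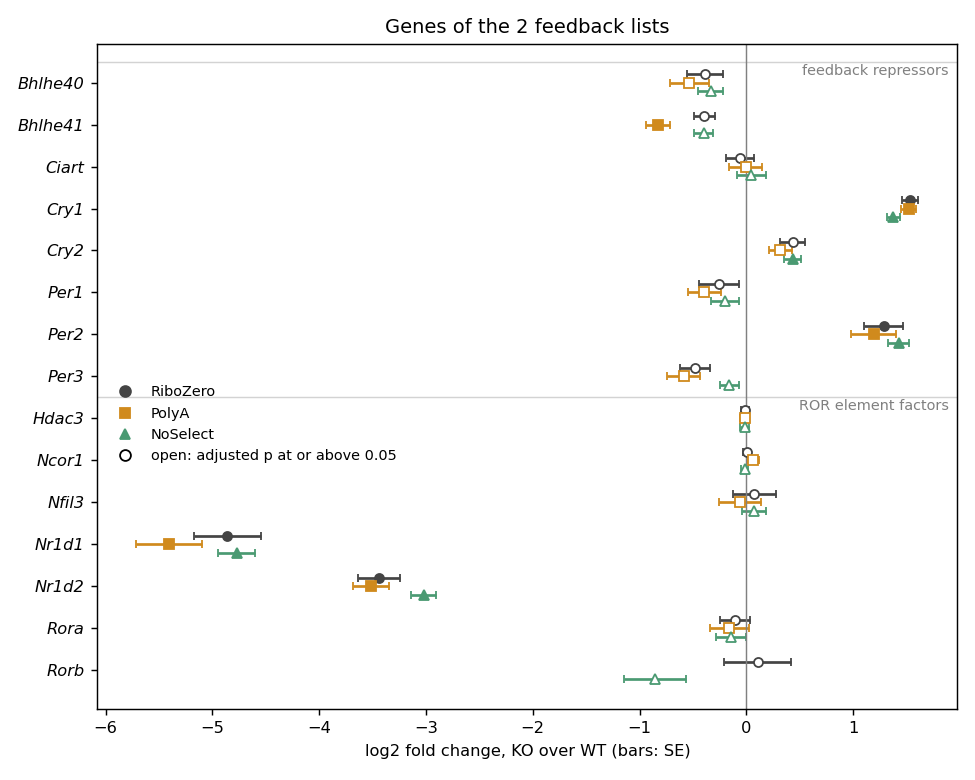
Log2 fold change of KO over WT (horizontal axis, bars give the SE) for the feedback repressors and for 7 of the 8 ROR element factors, in RiboZero (circles), PolyA (squares) and NoSelect (triangles), with open symbols for changes that were not called. Nr1d1 and Nr1d2 lie between -5.40 and -3.02, and Cry1 and Per2 between 1.19 and 1.53 in all 3 preparations.

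Outside the clock, the bHLH-PAS family was not called. Of 15 further family members, 10 were tested in RiboZero, 11 in PolyA and 10 in NoSelect, and 0 were called by edgeR in each. At an unadjusted p under 0.05 there were 1, 2 and 2 of them, and DESeq2 called 1, 2 and 1. The median log2 fold change was 0.01, 0.02 and 0.00. Of 21 cofactors and modifiers of the CLOCK-BMAL1 dimer, all tested, 1 was called in RiboZero and 0 in PolyA and NoSelect, and the list medians were -0.03, -0.02 and -0.02. At an unadjusted p under 0.05 there were 4, 2 and 3 of the 21, and DESeq2 called 2, 2 and 0. Over all rows DESeq2 called 976 of 16710, 1355 of 17211 and 878 of 17124. For KO against WT the share of all rows at an unadjusted p under 0.05 is not given here, so these counts have no background beside them.

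The genes most like a member were sought over all 32 libraries by Pearson's r of log2 CPM centred on the mean of each preparation, among 12489 genes, with values given as a description. Among the genes most like Npas2 were Cry1 (r = 0.988), Nnat (0.984), Slc16a10 (0.976) and Dtx4 (0.969), beside 0.823 at the 99th percentile of all genes. The log2 fold change of Nnat in KO was 2.45 (RiboZero), 2.16 (PolyA) and 2.30 (NoSelect), larger than that of Npas2. The genes most like Arntl were Ggt5 (0.850), Igfbp6 (0.839), Gdnf (0.839), Syt7 (0.832) and Mgp (0.831). Npas2 itself stood at -0.809 to Arntl in this measure. For Clock they were Atp8a1 (0.908), Tnks2 (0.905), Cdc42bpa (0.902), Slc36a4 (0.896) and Rmnd5a (0.888), and for Arntl2 the highest was Gcdh, at 0.658.

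These likenesses change once the genotype mean is removed as well. The genes most like Npas2 were then Lamp3 (0.788), Rab27a (0.786), Ptgs1 (0.781), Nek9 (0.758) and Mcfd2 (0.749), and those most like Arntl were led by Slc5a12 (0.736). Arntl and Npas2, at -0.809 before, stood at 0.503 in this measure. That was rank 230 of 12489 among the genes like Arntl, whose 99th percentile was 0.544. Clock and Npas2 stood at 0.556, rank 1686 among the genes like Clock. Clock was most like Usp9x (0.968), Lamp2 (0.942), Rab1a (0.929), Rnf11 (0.928) and Tmem30a (0.925), and the 99th percentile for Clock was 0.829.

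Markers of cell types were counted in the same fits. Of 8 lung markers, 2 were called in RiboZero (1 higher, 1 lower), 1 in PolyA and 1 in NoSelect (both lower). The surfactant gene Sftpa1 was the one called in all 3, with log2 fold changes of -0.49, -0.66 and -0.57. The summed lung markers ran from 15700 to 19911 CPM in WT and from 17622 to 22440 in KO in RiboZero, and WT and KO ranges overlapped in the other preparations too. Of 10 liver markers 1, 3 and 3 were tested, and 1 was called, lower, in PolyA (Ahsg, -1.56, named after its value was seen). Of cardiac muscle, blood and immune, and airway ciliated and neural markers, 0 were called by edgeR in each preparation with all mice. Without KO mouse 6, 2 of the 9 blood and immune markers were called higher in each preparation, the neutrophil genes S100a8 and S100a9, named after their values were seen. S100a8 then had a log2 fold change of 1.37, 1.46 and 1.70 in RiboZero, PolyA and NoSelect, and 1.18, 1.27 and 1.41 with all mice. That of S100a9 was 1.35, 1.51 and 1.55, and 1.17, 1.31 and 1.27 with all mice. Without this mouse 1 lung marker, Sftpa1, and 1 liver marker, Ahsg, were called in RiboZero. Over all rows, edgeR called 600, 596 and 472 without KO mouse 6. With all mice, at an unadjusted p under 0.05 there were 0, 2 and 1 cardiac muscle, 2, 2 and 2 blood and immune, and 2, 2 and 2 airway and neural markers, and DESeq2 called 0, 0 and 1, 1, 2 and 2, and 1, 1 and 0. Over all rows, DESeq2 called 976, 1355 and 878, and the share at the unadjusted cut-off is not given here. The summed airway ciliated and neural markers ran from 170 to 331 CPM in WT and from 254 to 350 in KO in PolyA. Their part in the results for the 4 genes was not tested.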

How the data were processed

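Lung RNA of 12 mice was sequenced in 32 libraries. The deposited table gives the authors' estimated counts, 1 row a gene. Salmon 1.4.0, UMI-tools 1.1.1 and GRCm38 are named in the submitters' processing notes, and the annotation and use of strand are not given in the sources used here. Of the values, 12.8% were not whole, and all were rounded to whole numbers. All 32 columns matched a library by name. Library pairs within a group differed by more than sampling noise (chi-square per degree of freedom 7.02 to 69.9). The 4 members and all lists were chosen with earlier results of these data known.

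KO was compared with WT within a preparation with edgeR 4.0.16 in R 4.3.3 (TMM, filterByExpr, glmQLFit, glmQLFTest, Benjamini-Hochberg adjustment), with genotype alone. Differences of the KO effect and preparation effects were fitted over 2 preparations. Ratios, with nothing added to the counts, and correlations were tested by exact permutation with scipy 1.17.1. Adding 0.5 to both counts of a ratio was an alternative. The fits were tested on simulated counts. Genes named from lists are those called in all 3 preparations, up to 4 a list, and the 5 genes most like a member by Pearson's r; a few genes that these rules pick are not reported here. Gene models were taken from GENCODE M21 and promoters from RefSeq, which may differ from the authors' annotation.

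The libraries that a mouse gave in several preparations were treated as pairs, since titles number the animals. Over 12490 rows, deviations from the group means correlated at 0.566 to 0.827, and own mouse was the best match for each library. A WT and a KO mouse with 1 number are different animals. Alternatives were DESeq2 1.42.0, its size factors, other filters, removal of 39 Lars2, Gm42418 and mitochondrial rows, blocks, mice 3 to 6, a joint fit of every library, and each library left out in turn. Alternatives chosen after seeing the data were mice 3 to 6 with the block, the permutation of ratios between preparations and the longest transcript as length.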

Additional observations from a re-analysis of the deposited data

Results flagged for a closer look

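In 36 groups of libraries, the highest or lowest value of a member or of a ratio was compared with its neighbour by Dixon's test, which chance passes in about 1 group in 20. Arntl2 was lowest in WT mouse 4 in PolyA, at 0.868 CPM with the next value at 1.34, and the ratio of Arntl2 to Arntl of that library was 0.0508, with the next at 0.0770. Arntl2 was highest in KO mouse 2 in PolyA, at 1.74 CPM with the next at 1.29, and in KO mouse 5 in NoSelect, at 1.51 CPM with the next at 1.00. Npas2 was lowest in WT mouse 2 in RiboZero, at 11.5 CPM with the next at 16.3. The ratio of Npas2 to Clock of the same library was 0.313, with the next at 0.415.

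The KO effect on Arntl differed between PolyA and RiboZero by 0.57 on the log2 scale with the mouse as a block (edgeR adjusted p = 0.000474). The ratio of PolyA to RiboZero was higher in 6 of 6 KO mice than in any WT mouse.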

How the results depend on the processing

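Npas2 and, in RiboZero and NoSelect, Arntl kept their direction and call under every alternative run, and all preparation effects kept theirs. At 10 counts in every library, Arntl2 could not be tested in RiboZero. A WT and a KO mouse with 1 number are different animals (correlations of -0.205 to 0.236, own number best in 1 of 6, 2 of 6 and 2 of 4 pairs). The replicate block on these numbers gave -0.27 for Arntl in PolyA (adjusted p = 0.0613), 0 cofactor calls in RiboZero, and log2 ratios of Npas2 to Clock of 1.61, 1.56 and 1.52 and of Arntl2 to Arntl of 0.66 in NoSelect. The last 4 lose the threshold, with adjusted p by paired permutation of 0.09375, 0.09375 and 0.125 for Npas2 to Clock and 0.125 for Arntl2 to Arntl. With the 4 pairs of NoSelect this test cannot pass it. The block gave 372 rows called in RiboZero (579 without) and 103 in NoSelect (372 without), and DESeq2 gave 976, 1355 and 878 rows (579, 694 and 372 with edgeR). For Arntl between PolyA and RiboZero, DESeq2 gave 0.57 (adjusted p = 5.63e-05), the block by mouse 0.57 and the permutation of ratios 0.58, and between PolyA and NoSelect DESeq2 gave 0.43. Clock in PolyA was called with DESeq2 (0.26) and in 1 fit of all libraries (0.30).

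The difference of the KO effect between RiboZero and NoSelect turned negative, without a call, with the block by mouse, with mice 3 to 6 alone and that block, and with the ratios, at -0.0246, -0.0238 and -0.0258 for Clock and -0.0455, -0.0444 and -0.0459 for Npas2. The cause was not tested. DESeq2 called 1, 2 and 1 bHLH-PAS genes in RiboZero, PolyA and NoSelect, 5 and 5 feedback repressors and 2 and 2 cofactors in the first and second. The fit of all libraries called 1 and 2 bHLH-PAS genes, 4 and 5 repressors and 2 and 1 cofactors there.

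In WT, Arntl and Npas2 gave r of 0.763 without the 2 farthest mice, 0.726 in RiboZero alone and 0.769 in PolyA alone, and Clock and Npas2 0.807, 0.576 and 0.847, and 0.836 with DESeq2's size factors. In KO, Arntl2 and Npas2 gave 0.864, 0.612, 0.422 and 0.755. All these missed the threshold after adjustment, and those over 4 mice could not pass it. In KO, Arntl and Arntl2 turned to 0.273 without the 2 farthest mice and 0.623 in PolyA alone, and Arntl and Clock to 0.818 and 0.118.

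Leaving out 1 library gave -0.30 to -0.24 for Arntl in PolyA, -0.127 to 0.00541 for Arntl2 in PolyA and -0.193 to 0.0602 in NoSelect. Differences of the KO effect ran from -0.17 to 0.15 for Arntl2 between PolyA and NoSelect, and between RiboZero and NoSelect from -0.0179 to 0.0392 for Clock and from -0.000372 to 0.147 for Npas2. Log2 ratios of Arntl2 to Arntl ran from 0.44 to 0.75 in RiboZero, from 0.12 to 0.29 in PolyA and from 0.52 to 0.73 in NoSelect, and those of Npas2 to Clock from 1.49 to 1.56 in NoSelect, where 3 against 4 mice cannot pass the threshold after adjustment. In RiboZero 2 to 4 repressors, 0 to 1 bHLH-PAS genes and 1 to 2 cofactors were called, and in PolyA 0 to 1 bHLH-PAS genes. The bHLH-PAS calls came without KO mouse 1. Without KO mouse 3, the ratio of Arntl2 to Arntl passed in RiboZero and PolyA, and without KO mouse 6 it passed in neither. Depth limits Arntl2, with 8 to 89 counts per library.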
